A study of Mus musculus with 12 samples.

Results

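The genes described here are the 9 CXC chemokine genes Cxcl1, Cxcl2, Cxcl3, Cxcl9, Cxcl10, Cxcl11, Cxcl14, Cxcl16 and Pf4, taken by symbol from a table of read counts for 24421 genes. Of the 9 members, 7 passed the filter on low counts and were tested with 11468 genes in all. Cxcl9 and Cxcl11 did not pass and are given as counts. Bulk RNA came from macrophages grown out of bone marrow (BMDMs) of C57BL/6 mice, kept for 5 days in the growth factor M-CSF at 100 ng/mL. The macrophages were given I-BET151 (iBET), which blocks the acetyl-lysine pocket of the BET bromodomain proteins, at 5.0 µM, or its solvent DMSO (5% in the labels). They also received ovalbumin alone (Ova) or ovalbumin opsonized with IgG as an immune complex (IC, formed with rabbit polyclonal anti-ovalbumin), for 4 hours. The labels present drug and stimulus as simultaneous whereas the study's methods add the drug earlier, which leaves the order uncertain. The 4 groups, named by drug and stimulus (DMSO Ova, DMSO IC, iBET Ova, iBET IC), held 3 libraries each. Every group had a library from each of the mice A, B and C.

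CXC chemokines are small secreted proteins, named for the spacing of their first cysteines, that steer leukocytes through G protein-coupled receptors. Cxcl1, Cxcl2 and Cxcl3 carry an ELR motif, bind Cxcr2 and recruit neutrophils, and macrophages make them through NF-kB when they are activated. Cxcl9, Cxcl10 and Cxcl11 bind Cxcr3 on activated T cells and NK cells and are classical interferon-induced genes, Cxcl16 is made as a transmembrane protein that binds Cxcr6, and Pf4 is best known from platelet granules.

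The libraries held 7.55 M to 17.4 M counts. In mouse A's DMSO Ova library, the ribosomal precursor transcript Rn45s took 77.4% of them and left 1.77 M counts on other genes, against 1.41% to 7.83% in the other 11 libraries. There 3 counts amounted to 1.54 CPM (counts scaled to the TMM-normalized library size and given per 1 M), against 0.160 to 0.360 CPM elsewhere, so it carried little information on the rarest members. All 9 macrophage markers examined (Csf1r, Adgre1, Cd68 and others) passed the filter, and their summed level lay between 6464 and 8657 CPM. Of the megakaryocyte and platelet markers examined none passed the filter, Gp9, Gp6 and Gata1 were at 0 counts in all 12 libraries, and the summed level lay between 1.54 and 3.59 CPM. The neutrophil list, of which 9 of 10 genes had a row, summed to 17.5 to 60.6 CPM with overlapping ranges in the 4 groups. In bulk RNA, fewer cells of a type and less RNA per cell cannot be told apart.

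The members spanned a wide range of levels. Per kilobase of exon, Pf4 (80.3 ± 5.44 CPM per kb, SD, n = 3) and Cxcl16 (70.5 ± 12.5) were the most abundant members in DMSO Ova, and their ranges over libraries overlapped. Cxcl14 followed at 13.3 ± 3.37 CPM per kb, and then Cxcl2 (4.42 ± 0.665) and Cxcl10 (3.54 ± 2.27), whose ranges also overlapped. Cxcl1 stood at 0.735 ± 0.319 CPM per kb. Cxcl9 (0.108), Cxcl3 (0.0383) and Cxcl11 (0.00728) were at the bottom and could not be ordered, because each range overlapped the next. In DMSO IC the order changed for the ELR members. Cxcl2 reached 17.6 ± 1.63 CPM per kb and stood above Cxcl14 (11.6 ± 1.85) with no overlap, and Cxcl3 (0.648 ± 0.0414) stood above Cxcl11 (0.149 ± 0.0709) and Cxcl9 (0.0563 ± 0.0461).

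**Figure D1:**
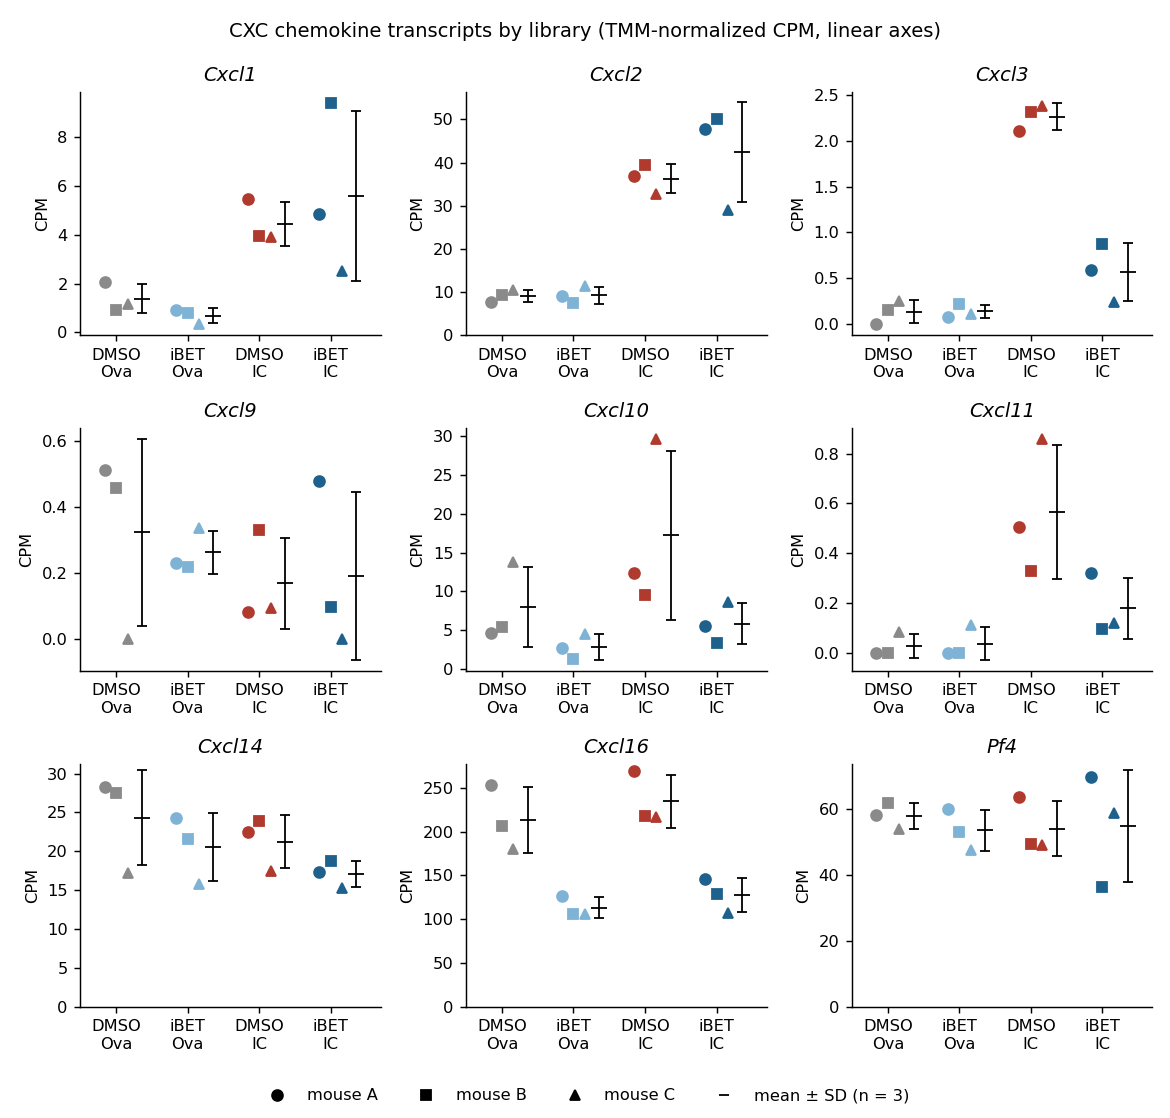
Each panel plots the TMM-normalized CPM of 1 member (linear y axis) in the 12 libraries, with symbols for mouse A, B and C, colours for the 4 groups and a bar for the mean ± SD of 3 libraries. Cxcl1 and Cxcl2 are higher in every IC library than in the Ova libraries of the same drug arm. Cxcl3 is too, but its lowest iBET IC library and highest iBET Ova library both hold 2 counts. Cxcl16 is lower in every iBET library than in any DMSO library, and Pf4 overlaps in all 4 groups.

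Cxcl1, Cxcl2 and Cxcl3, the neutrophil-attracting members, lie on the plus strand of chromosome 5 (GRCm38) at chr5:90891241-90893115, chr5:90903871-90905938 and chr5:90786103-90789600 (GENCODE vM21). RefSeq (GRCm38.p6) gives their promoters, and the 250 bases before each RefSeq start are shown because all 3 genes were higher in the IC libraries. Capitals mark matches to GGGANTTNC, letters resembling an NF-kB site.
Cxcl1 (chr5:90890995-90891244, plus strand): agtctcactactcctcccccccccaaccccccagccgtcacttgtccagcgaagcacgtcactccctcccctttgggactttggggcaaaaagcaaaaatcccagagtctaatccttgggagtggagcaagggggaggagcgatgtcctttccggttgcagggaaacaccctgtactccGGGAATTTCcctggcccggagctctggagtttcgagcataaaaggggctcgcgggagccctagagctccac
Cxcl2 (chr5:90903649-90903898, plus strand): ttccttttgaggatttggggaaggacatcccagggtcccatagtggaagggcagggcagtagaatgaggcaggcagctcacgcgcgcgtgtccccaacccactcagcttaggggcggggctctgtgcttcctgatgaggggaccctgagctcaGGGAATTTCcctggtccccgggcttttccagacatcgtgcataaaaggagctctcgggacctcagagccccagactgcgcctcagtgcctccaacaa
Cxcl3 (chr5:90785851-90786100, plus strand): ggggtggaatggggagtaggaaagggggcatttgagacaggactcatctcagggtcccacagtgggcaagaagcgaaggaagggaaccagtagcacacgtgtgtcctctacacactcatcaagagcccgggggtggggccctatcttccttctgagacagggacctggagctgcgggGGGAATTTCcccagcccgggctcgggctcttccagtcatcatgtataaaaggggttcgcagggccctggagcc

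The same 9 letters, GGGAATTTC, stood in all 3 windows, at −71 to −63 in Cxcl1, −97 to −89 in Cxcl2 and −73 to −65 in Cxcl3, counted from the RefSeq start. On either strand, GGGANTTNC was found in 3.54% of 32851 promoter windows of this length. These are letter matches, chosen after the promoters had been read, and not measured binding sites. Cxcl1 shared no 50-base stretch of exon with another gene. Cxcl2 and Cxcl3 shared 108 such stretches, 5.35% of those of Cxcl2, so some of their reads could be assigned to either gene.

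With IC, ELR members rose, and the calls were Cxcl2 in both drug arms, Cxcl3 in DMSO and Cxcl1 in iBET. All 3 genes were higher with IC in 3 of 3 mice in either arm, and no member's interaction was called. In the DMSO arm, 2 of the 7 tested members were called higher (edgeR, adjusted p under 0.05), Cxcl2 and Cxcl3, against 0.732% of all genes called higher, and none was called lower. With mouse as a block, 4 were called higher, the added genes being Cxcl1 and Cxcl10, against 1.47% of all genes. In the iBET arm, 2 were called higher, Cxcl2 and Cxcl1, against 0.314% of all genes. With the block, Cxcl10 joined them, which made 3 against 0.593%. The study picked out Cxcl2 from these same libraries, among IC-induced genes dampened by iBET, so its rise is not independent evidence. In this fit its rise was 1.94 on the log2 scale in DMSO and 2.21 in iBET, and the interaction was not called. The median log2 fold change over the 7 tested members was 1.00 in the DMSO arm and 1.04 in the iBET arm, and over all tested genes it was −0.01 in both. Cxcl3 passed the filter through its DMSO IC libraries only, and Cxcl1 would not have passed on its Ova libraries alone. These member counts and medians are therefore descriptions.

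Cxcl2, also known as MIP-2, stood at 7.70, 9.28 and 10.5 CPM in DMSO Ova (mice A, B and C) and at 36.8, 39.4 and 32.7 CPM in DMSO IC. In the iBET arm it stood at 8.95, 7.39 and 11.3 CPM with Ova and at 47.9, 50.2 and 29.0 CPM with IC. The IC and Ova libraries did not overlap in either arm, and the lowest IC library was that of mouse C in iBET. The log2 fold change was 1.94 (SE 0.22, edgeR adjusted p = 0.00142) in DMSO and 2.21 (SE 0.22, adjusted p = 0.000832) in iBET. Both calls remained when any 1 library was left out, and without mouse B, which leaves 2 libraries a group, the adjusted p was 0.285 and 0.323.

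Cxcl1, also known as KC, stood at 2.05, 0.920 and 1.16 CPM in DMSO Ova and at 5.47, 3.96 and 3.91 CPM in DMSO IC. In the iBET arm it stood at 0.926, 0.772 and 0.338 CPM with Ova and at 4.86, 9.40 and 2.52 CPM with IC. Every IC library lay above every Ova library, and mouse B's iBET IC library was the highest of the 12. The log2 fold change was 1.95 in DMSO (SE 0.50, edgeR adjusted p = 0.0948). Blocking on mouse gave 1.92 with an adjusted p of 0.0384. That blocked p was 0.0562 without mouse A's Rn45s-rich DMSO Ova library. The adjusted p was 0.0250 with DESeq2, 0.0139 with DESeq2 and the block, and 0.0289 with 1 surrogate variable in edgeR. In iBET the log2 fold change was 2.98 (SE 0.49, edgeR adjusted p = 0.0195). This call was lost without any of the 3 iBET Ova libraries (adjusted p 0.0807, 0.115 and 0.105 without mouse A, B and C) and without mouse A's iBET IC library (0.0646) or mouse B's (0.0643). The call was also lost without mouse B (log2 fold change 2.48) or mouse C (adjusted p 0.0872). With no filter the edgeR adjusted p was 0.00609 in iBET and 0.0772 in DMSO.

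Cxcl3, the third ELR member, was nearly silent with Ova. It had 0, 2 and 3 counts in DMSO Ova and 1, 2 and 1 counts in iBET Ova, and 25, 21 and 25 counts in DMSO IC. In iBET IC it had 11, 9 and 2 counts. As CPM this was at most 0.249 with Ova, between 2.10 and 2.38 in DMSO IC, and between 0.240 and 0.872 in iBET IC. DMSO IC thus stood above the other groups without overlap, and the lowest iBET IC library lay within the range of the Ova libraries. The pooled counts in DMSO, 71 with IC and 5 with Ova, gave a 12.2-fold ratio per library size (95% exact interval 4.99 to 38.8, for counting error only). The log2 fold change was 3.54 (SE 0.52, edgeR adjusted p = 0.00552), a call that ended when mouse B's DMSO Ova library was left out (0.0768) or the DMSO groups were fitted alone (0.0669). The call also ended without mouse B (0.520) or mouse C (0.134). With no filter the adjusted p was 0.00426. In iBET, 22 and 4 pooled counts gave 4.54-fold (1.54 to 18.1), and the log2 fold change of 2.07 (SE 0.62) was not called (edgeR adjusted p = 0.325).

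**Figure D2:**
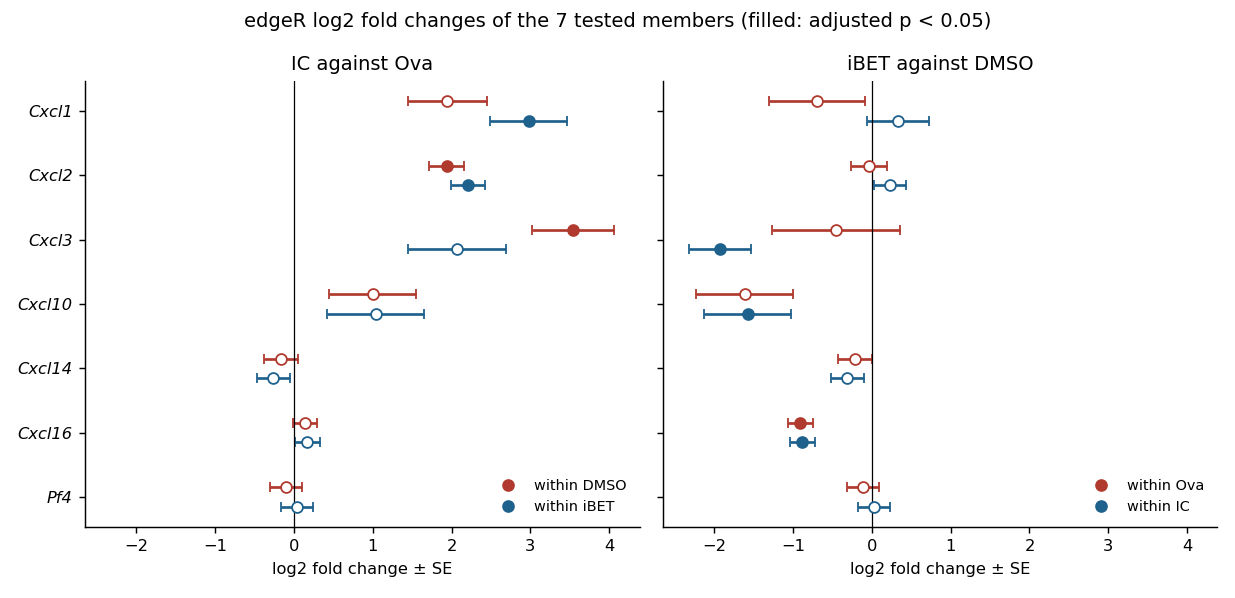
Points are edgeR log2 fold changes of the 7 tested members with their SE (x axis), for IC against Ova on the left and iBET against DMSO on the right, and filled points have an adjusted p under 0.05. Cxcl2 lies near 2 in both arms of the left panel, and Cxcl3 falls by 1.93 on the log2 scale with iBET in IC, where Cxcl1 and Cxcl2 stand at 0.33 and 0.23.

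With iBET, Cxcl3 was lower in IC-treated macrophages, and Cxcl1 and Cxcl2 were not called. It went from 2.27 ± 0.145 CPM in DMSO to 0.566 ± 0.317 CPM in iBET (SD, n = 3). The ranges did not overlap, and the log2 fold change was −1.93 (SE 0.39, edgeR adjusted p = 0.00233), lower in 3 of 3 mice. Since Cxcl3 passed the filter only through DMSO IC, the high group here, the comparison was also made with no filter, where the adjusted p was 0.00393. With the filter, the call remained without any 1 library (highest adjusted p 0.0137) and without any 1 mouse (0.0390). Cxcl1 and Cxcl2 were not called in the same comparison, with log2 fold changes of 0.33 (SE 0.39, edgeR adjusted p = 0.549) and 0.23 (SE 0.20, 0.404). Cxcl1 was lower in mice A and C and higher in mouse B, and its fold change was −0.23 without mouse B's iBET IC library. In Ova none of the ELR members was called: log2 fold changes were −0.70 (SE 0.61) for Cxcl1, −0.04 (SE 0.23) for Cxcl2 and −0.46 (SE 0.81) for Cxcl3, the last from 9 counts over 6 libraries.

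The ratio of counts inside 1 library does not depend on library scaling. In DMSO IC, Cxcl3 had 5.72%, 5.87% and 7.29% of the Cxcl2 count in mice A, B and C, and in iBET IC 1.23%, 1.74% and 0.826%. The ratio to Cxcl2 was lower with iBET in each mouse, and the groups did not overlap. On the log2 scale the mean moved from −4.00 ± 0.19 to −6.37 ± 0.54 (SD, n = 3), a difference of −2.37 with a two-sided exact permutation p of 0.10, which is the smallest that 3 against 3 libraries can give. The ratio of Cxcl3 to Cxcl1 moved likewise, from 38.5%, 58.3% and 61.0% to 12.1%, 9.28% and 9.52%, a log2 difference of −2.33 (exact permutation p = 0.10). That of Cxcl1 to Cxcl2 differed by −0.04 on the log2 scale (exact permutation p = 1), with overlapping groups. The p-values adjusted over these 3 ratios were 0.15, 0.15 and 1. The ratios were chosen after the values had been seen.

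**Figure D3:**
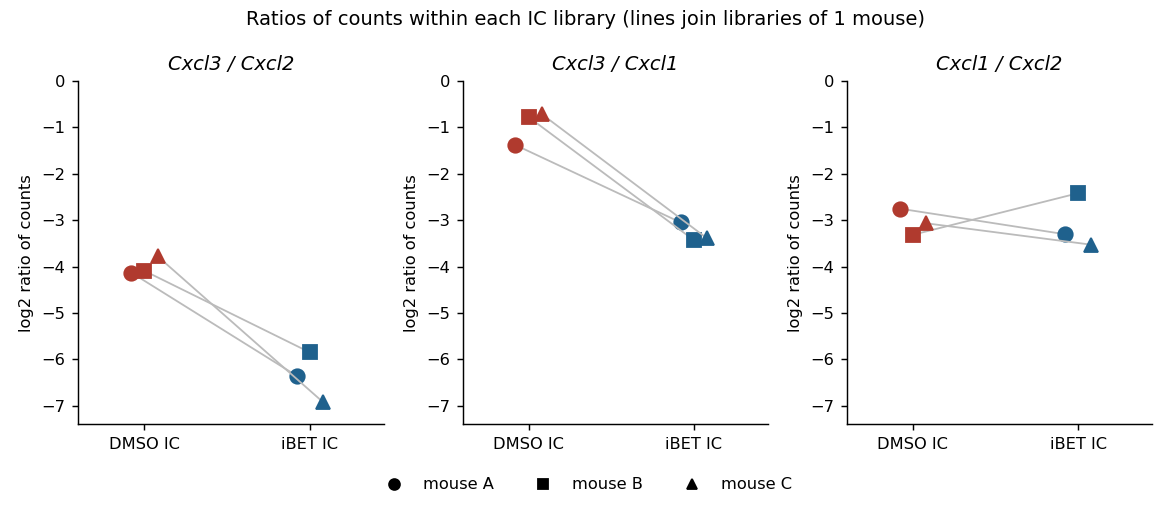
Log2 ratios of the counts of 2 ELR members within each IC library (y axis) are plotted for DMSO and iBET, with lines joining the libraries of 1 mouse. The ratios of Cxcl3 to Cxcl2 and to Cxcl1 are lower with iBET in all 3 mice, and that of Cxcl1 to Cxcl2 falls in mice A and C and rises in mouse B.

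The interaction tested whether IC acted differently in the 2 arms, as the response in iBET minus that in DMSO. No member was called by edgeR, by edgeR with mouse as a block or by DESeq2, none of the 7 had an unadjusted p under 0.05 in edgeR, and 0% of all genes were called by edgeR without the block and 0% with it. DESeq2 called 4 genes in all. Of 11468 genes, 292 had an unadjusted edgeR p under 0.05, a smaller share than this threshold alone would give. The interaction was −1.48 for Cxcl3 (SE 1.00, edgeR adjusted p = 0.9999), with changes of −2.06, −1.49 and −2.05 in log2 CPM in mice A, B and C. It was 1.03 for Cxcl1 (SE 0.72, edgeR adjusted p = 0.9999), positive in 3 of 3 mice. With Ova counts of 0 to 3, the Cxcl3 interaction could not be measured closely.

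Among the Cxcr3 ligands, Cxcl10 (chr5:92346638-92348889, minus strand) was the only one to pass the filter. Its promoter is shown for comparison with the ELR genes, with capitals marking GAAANNGAA, letters resembling an interferon-stimulated response element (ISRE), and GGGANTTNC.
Cxcl10 (chr5:92348890-92349139, minus strand): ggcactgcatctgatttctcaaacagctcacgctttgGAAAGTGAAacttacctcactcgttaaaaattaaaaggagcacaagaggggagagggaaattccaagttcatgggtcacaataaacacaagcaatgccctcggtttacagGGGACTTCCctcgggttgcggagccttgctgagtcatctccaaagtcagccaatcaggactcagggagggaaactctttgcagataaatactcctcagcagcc

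The ISRE-like letters lay at −213 to −205 and the NF-kB-like letters at −103 to −95. GAAANNGAA was found in 7.13% of the promoter windows. The Cxcl9 window held both patterns too, that of Cxcl14 held an ISRE-like match at −172 to −164, and those of Cxcl1, Cxcl2 and Cxcl3 held no ISRE-like match. TTCNNNGAA, letters resembling a STAT (GAS) site, was in 7.02% of windows and among the members in that of Cxcl14 alone. Pf4 held none of the 3 patterns.

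**Figure D4:**
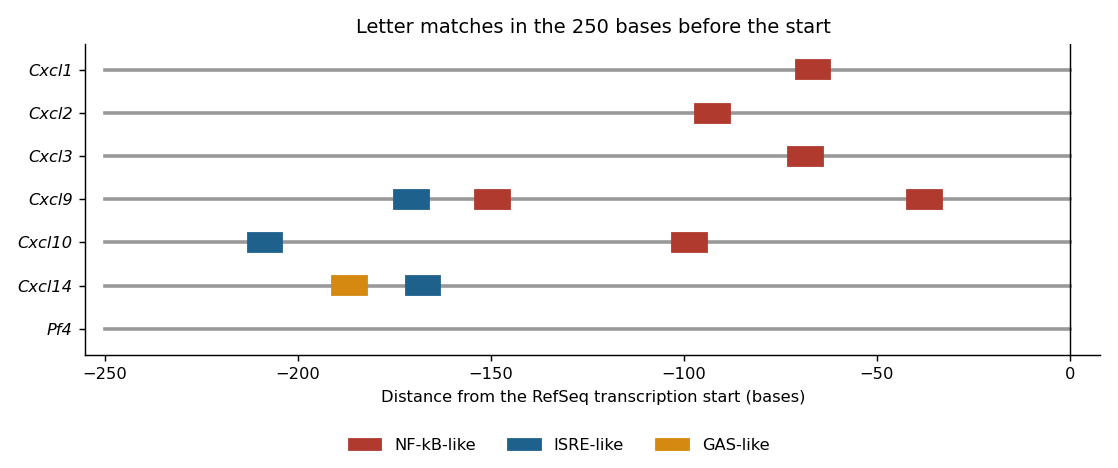
Boxes mark letter matches on either strand in the 250 bases before the RefSeq start of the 7 members with a promoter entry (x axis, distance from the start in bases), with NF-kB-like matches in red, ISRE-like in blue and GAS-like in orange. Cxcl1, Cxcl2 and Cxcl3 each hold 1 NF-kB-like match, Cxcl9 and Cxcl10 hold both NF-kB-like and ISRE-like matches, and Pf4 holds none.

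Cxcl10, also known as IP-10, was lower with iBET in each mouse under either stimulus. It stood at 4.62, 5.44 and 13.8 CPM in DMSO Ova and at 2.70, 1.21 and 4.51 CPM in iBET Ova (mice A, B and C). In IC-treated cells it stood at 12.4, 9.57 and 29.6 CPM in DMSO and at 5.55, 3.29 and 8.63 CPM in iBET. Mouse C was the highest in every group, and DMSO exceeded iBET in 3 of 3 mice under either stimulus. The spread between mice was as large as the effect, and the fit without the block counts that spread as error. In Ova the log2 fold change of iBET against DMSO was −1.62 (SE 0.62, edgeR adjusted p = 0.0701). Blocking on mouse gave −1.58 (SE 0.23, adjusted p = 0.000190, and 0.000123 without mouse A's DMSO Ova library). In IC it was −1.58 (SE 0.55, edgeR adjusted p = 0.0460), and with the block −1.48 (SE 0.19, adjusted p = 6.22e-05).

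The unblocked call in IC was lost with no filter (adjusted p 0.105), with the IC groups fitted alone (0.0584) and in 7 of 12 fits without 1 library. It was also lost without mouse A (0.247) or mouse B (0.107). None of these fits used the pairing by mouse, so they do not describe the blocked result. The unblocked adjusted p was 0.196 without mouse C's DMSO IC library, where the fold change was −0.93. It was 0.138 and 0.123 without the iBET IC libraries of mice B and A. It was 0.0561 to 0.0610 without A's or B's DMSO Ova library, the iBET Ova library of A or the DMSO IC library of A. Cxcl10 was also higher with IC within each mouse. The log2 fold change was 1.00 in DMSO (SE 0.55, edgeR adjusted p = 0.560), and with the block 0.98 (SE 0.19, adjusted p = 0.0186). In iBET it was 1.04 (SE 0.62, edgeR adjusted p = 0.778), and with the block 1.08 (SE 0.22, adjusted p = 0.0489). Without mouse A's DMSO Ova library these blocked p-values were 0.0479 and 0.0318. Reads over 3.85% of its exon sequence could also come from Art3 on the other strand, which had 2 counts in each group.

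**Figure D5:**
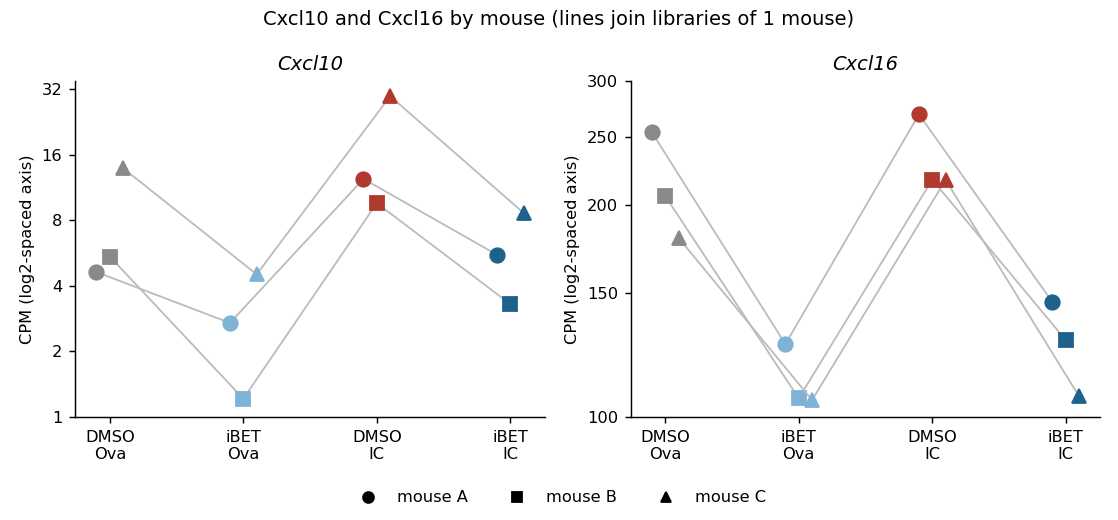
CPM of Cxcl10 and Cxcl16 (log2-spaced y axes that do not start at 0) in the 4 groups, with lines joining the libraries of mice A, B and C. Cxcl10 is highest in mouse C throughout and falls with iBET in every mouse, and Cxcl16 falls with iBET from at least 180 to at most 146 CPM.

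Cxcl9 and Cxcl11 were close to the limit of detection. Cxcl9, another interferon-induced ligand, had 7 counts over the 3 DMSO Ova libraries, 8 in iBET Ova, 5 in DMSO IC and 10 in iBET IC. The ratio of IC to Ova was 0.614 in DMSO (95% exact interval 0.154 to 2.25) and 1.03 in iBET (0.367 to 3.01), so no difference was detectable at this depth. Cxcl11 had 0, 0 and 1 counts in DMSO Ova, the same in iBET Ova, 6, 3 and 9 counts in DMSO IC, and 6, 1 and 1 counts in iBET IC. The DMSO IC libraries lay above all Ova libraries, with a pooled ratio of 15.5 to DMSO Ova (95% exact interval 2.44 to 645, against 1 count). In IC, iBET against DMSO gave a pooled ratio of 0.374 (0.141 to 0.904), with overlapping libraries. Without the filter, the edgeR adjusted p of Cxcl11 was 0.220 for IC in DMSO and 0.221 for iBET in IC. GENCODE lists Cxcl11 in this strain's reference as a polymorphic pseudogene, and 41.2% of its 50-base stretches were shared, nearly all with the processed pseudogene Gm2673, so its counts are uncertain.

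Cxcl16, at chr11:70453983-70459984 on the minus strand, is made as a membrane-bound scavenger receptor for oxidized lipids and is released as a chemokine by Adam10. It fell with iBET under both stimuli. In Ova it stood at 254, 206 and 180 CPM in DMSO and at 127, 106 and 106 CPM in iBET. In IC it stood at 269, 217 and 217 CPM in DMSO and at 146, 129 and 107 CPM in iBET. No iBET library reached a DMSO library. The log2 fold change of iBET against DMSO was −0.91 in Ova (SE 0.16, edgeR adjusted p = 0.000857). Its value was −0.88 in IC (SE 0.15, adjusted p = 0.000854), and the interaction was 0.03 (SE 0.22, adjusted p = 0.9999). Both calls remained without any 1 library (highest adjusted p 0.00621), and without mouse B the adjusted p in Ova was 0.0510. IC against Ova was not called in either arm (log2 fold changes 0.14 and 0.17), although every mouse was slightly higher with IC. The gene Zmynd15 overlaps Cxcl16 on the opposite strand, sharing 19.0% of its 50-base stretches, and without strand their reads there cannot be told apart. Zmynd15 stood at 5.37, 3.24, 5.30 and 3.57 CPM on average in DMSO Ova, in iBET Ova, in DMSO IC and in iBET IC.

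In all, iBET lowered 1 of the 7 tested members in Ova (Cxcl16) and 3 in IC (Cxcl16, Cxcl3 and Cxcl10), and raised none. The 3 in IC include Cxcl3, which entered the test through the DMSO IC libraries alone, so this count is a description. Of all genes, 14.2% were called lower in Ova and 15.8% in IC, and 17.1% and 19.0% were called higher, so the share of members called lower in Ova was near that of all genes. With the block the members called lower were 2 in Ova (Cxcl10 added) and 3 in IC, against 17.9% and 19.8% of all genes. The medians over the 7 members were −0.46 in Ova and −0.31 in IC on the log2 scale, against 0.02 and −0.0037 over all genes. Of the other cell type lists, the 4 endothelial markers summed to 11.5 to 16.7 CPM with iBET and 18.5 to 27.1 CPM without it, nearly all from Kdr, and the part of this in the members' changes was not tested.

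Cxcl14 and Pf4 were not called in any comparison. Cxcl14 (chr13:56288643-56296551, minus strand), a chemokine made mainly by epithelial tissues, stood at 28.3, 27.5 and 17.2 CPM in DMSO Ova, 24.2, 21.6 and 15.8 in iBET Ova, 22.5, 23.9 and 17.4 in DMSO IC, and 17.3, 18.7 and 15.3 in iBET IC. It was lower with iBET in 3 of 3 mice under either stimulus, by −0.21 (SE 0.21, edgeR adjusted p = 0.487) in Ova and −0.31 (SE 0.21, 0.274) in IC on the log2 scale, and mouse C was lowest in each group. Pf4 (chr5:90772435-90773383, plus strand) stood at 58.0, 61.7 and 53.9 CPM in DMSO Ova and 59.8, 52.9 and 47.5 in iBET Ova. With IC it stood at 63.5, 49.3 and 49.0 CPM in DMSO and 69.5, 36.2 and 58.7 in iBET. The groups overlapped, and its log2 fold changes lay between −0.11 and 0.04 in the 4 comparisons with SEs near 0.20. These Pf4 levels stood beside the platelet markers at or near 0 given above. Its neighbour Ppbp, the other classical platelet chemokine, had between 0 and 12 counts per library.

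No other CXC ligand passed the filter. Of the 6 remaining ligand genes, Cxcl5, Cxcl13, Cxcl15 and Cxcl17 had no count in any library, which allows up to 0.0802 to 0.111 CPM per group (3 counts), and Cxcl12 had at most 5 counts and Ppbp at most 12. Of 8 receptor genes, 2 were tested. Cxcr4, the receptor of Cxcl12, stood at 45.6 ± 10.2 CPM in DMSO Ova, 19.4 ± 7.62 in iBET Ova, 21.3 ± 4.14 in DMSO IC and 10.6 ± 2.33 in iBET IC (SD, n = 3). It fell with iBET in Ova (log2 fold change −1.23, SE 0.29, edgeR adjusted p = 0.00759) and in IC (−0.99, SE 0.30, 0.0223), the latter lost without mouse B's DMSO IC library (0.0752) or mouse B's iBET IC library (0.0563) or mouse C's (0.0813). Both calls were lost without mouse B (0.112 in Ova and 0.1815 in IC), and that in IC also without mouse A (0.0700). With IC in DMSO, Cxcr4 changed by −1.11 (SE 0.29, edgeR adjusted p = 0.108, with the block 0.0119).

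Cxcr3, the receptor of Cxcl9, Cxcl10 and Cxcl11, was rare, at 2.32 ± 1.03 CPM in DMSO Ova, 0.513 ± 0.249 in iBET Ova, 0.690 ± 0.404 in DMSO IC and 0.784 ± 0.125 in iBET IC. It fell with iBET in Ova (log2 fold change −2.06, SE 0.55, edgeR adjusted p = 0.0136), a call that ended when mouse C's DMSO Ova library was left out (0.0900) or mouse A's iBET Ova library (0.0621). The call also ended without mouse B (0.0662). Cxcr3 passed the filter through the DMSO Ova libraries of mice B and C and the DMSO IC library of mouse C. The high group of this comparison thus helped it into the test. Cxcr2, the receptor of the ELR members, had 1 to 9 counts per group, Cxcr1, Cxcr5 and Cxcr6 had at most 3, and the scavenging receptors Ackr1 and Ackr3 had none.

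The NF-kB list, of 15 regulators and targets, had 14 tested genes. With IC, 6 were called higher in DMSO and 7 in iBET, none lower, against 0.732% and 0.314% of all genes called higher. The medians were 0.77 and 0.83 on the log2 scale, against −0.01 over all genes in both arms. Of the tested genes, Il1b passed the filter through its IC libraries only, with 0 to 6 counts per library with Ova and 10 to 25 with IC. These counts and medians are therefore descriptions. The study picked out Tnf, Nfkbia and Nfkbie of this list from these libraries, among IC-induced genes dampened by iBET. Their part in the counts is thus not independent evidence. Tnfaip3, which encodes the NF-kB brake A20, rose with IC by 1.34 (SE 0.13, edgeR adjusted p = 0.000676) in DMSO and 1.48 (SE 0.13, 0.000304) in iBET. Nfkbia, the inhibitor IkB-alpha, rose by 1.13 (SE 0.14, 0.00207) in DMSO, Tnf by 1.09 (SE 0.16, 0.00576) in DMSO and 1.23 (SE 0.16, 0.00396) in iBET, and Nfkb1, the p105 precursor, by 0.76 (SE 0.11, 0.00771) in iBET. The Nfkb1 call was lost without mouse B's iBET Ova library (0.0754) or mouse B's iBET IC library (0.0606). With the DMSO groups fitted alone, the DMSO calls of Nfkbia (0.0732) and Tnf (0.144) were lost. Without mouse B, 0 genes in all were called with IC in either arm, so each of these calls was lost. Without mouse C, those of Tnf (0.126 in DMSO, 0.0805 in iBET) and Nfkb1 (0.0835) were lost.

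With iBET the same list moved both ways, 7 higher and 3 lower in Ova and 7 higher and 2 lower in IC. Of all genes 17.1% were higher and 14.2% lower in Ova, and 19.0% and 15.8% in IC, so the counts of lower genes were near the shares of all genes. Zfp36, tristetraprolin, which destabilizes AU-rich mRNAs including those of chemokines, rose by 1.69 (SE 0.20, edgeR adjusted p = 5.16e-05) in Ova and 1.50 (SE 0.19, 9.89e-05) in IC. Nfkbiz, which encodes the nuclear cofactor IkB-zeta, rose by 1.29 (SE 0.15, 6.60e-05) and 1.54 (SE 0.15, 1.10e-05). Nfkbie rose by 0.74 (SE 0.14, 0.00130) in IC, and Bcl3, another nuclear IkB protein, fell by 1.40 (SE 0.26, 0.00147) in Ova. The Bcl3 call was lost without mouse B (0.0798) or mouse C (0.0508). Tnf and Nfkbia, which the study had picked out, were also higher with iBET in IC in 3 of 3 mice. Their changes in mice A, B and C were 1.05, 0.77 and 0.45 for Tnf and 0.51, 0.53 and 0.35 for Nfkbia. All these values are on the log2 scale.

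The interferon list, of 15 receptor, kinase, STAT and IRF genes, had 14 tested, and Ifnb1 had no count in any library. None was called with IC in either arm, where the medians were −0.0044 and −0.06 on the log2 scale, no gene of the list had an unadjusted edgeR p under 0.05, and DESeq2 called 0. With iBET, 5 were higher and 2 lower in Ova, and 3 higher and 2 lower in IC, of 14. Apart from the 5 higher in Ova, these counts were near the shares of all genes given for the NF-kB list. Stat2 rose by 0.85 (SE 0.09, edgeR adjusted p = 2.24e-05) in Ova and 0.82 (SE 0.09, 2.33e-05) in IC, and Irf9, its partner in the ISGF3 complex that binds ISREs, fell by 0.55 (SE 0.10, 0.00119) and 0.47 (SE 0.10, 0.00251). Jak1 rose by 0.41 (SE 0.08, 0.00251) and 0.37 (SE 0.08, 0.00354). The Irf9 calls were lost without mouse B (0.0606 in Ova and 0.0913 in IC), and that in Ova also without mouse C (0.06035). The Jak1 calls were lost without mouse B (0.0883 in Ova and 0.101 in IC) or mouse C (0.0790 and 0.0595). Of 7 proteases that cut or shed CXC chemokines, 6 were tested and 1 was called, Mmp14, lower with iBET in IC. There 15.8% of all genes were called lower, so this count was near the share of all genes. Mmp14 fell by 2.49 (SE 0.67, edgeR adjusted p = 0.0140). The call was lost without mouse A's DMSO IC library (0.0528), without mouse A (0.193) or without mouse B (0.0888). Adam10, the sheddase of Cxcl16, stood at 300.1, 293, 239 and 271 CPM on average in DMSO Ova, in iBET Ova, in DMSO IC and in iBET IC and was not called, but for its change with IC in DMSO when mouse was a block (−0.33 on the log2 scale without it, edgeR adjusted p = 0.0821, with it 0.0399).

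For the 5 members called in at least 1 comparison, the 2 genes with the most similar course over the 12 libraries were sought among 8046 or 8047 other genes with a mean of at least 10 CPM, by the root-mean-square (RMS) difference of centred log2 CPM. Cxcl2 was nearest to Tnfaip3 (RMS difference 0.48 against its own spread of 1.06) and Icam1 (0.48). Cxcl1 was nearest to Kdm6b (0.59 against 1.21) and then to Cxcl2 (0.60). Cxcl3 was nearest to Jdp2 (0.69 against 1.28) and then to Tnfaip3 (0.71). Jdp2 stood at 14.1, 16.9, 50.2 and 25.7 CPM on average in DMSO Ova, in iBET Ova, in DMSO IC and in iBET IC. Cxcl10 was nearest to Gpr132 (0.55 against 1.12) and Rsad2 (0.56), the latter an interferon-induced gene at 30.2, 14.1, 39.7 and 16.3 CPM. Cxcl16 was nearest to Pcdh7 (0.12 against 0.48) and Smim10l1 (0.12). These likenesses describe 12 libraries that share mice and groups.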

How the data were processed

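The authors deposited counts per gene symbol for 12 BMDM libraries. Per the labels and the study's methods, reads were trimmed with Trim Galore, checked with FastQC, aligned to mm10 with HISAT2 and counted with featureCounts. Whether counting used strand, how multiply mapped reads were treated and which annotation served were not given in the sources used here. A second deposited table of normalized values was not used. Columns were matched to mice and groups through their labels, and 0 were unmatched.

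The counts went into edgeR 4.0.16 under R 4.3.3. Its filterByExpr (minimum count 10) left 11468 genes, TMM factors were computed, and 1 robust quasi-likelihood model with a term per group was fitted to all 12 libraries. P-values are two-sided and Benjamini-Hochberg adjusted over all tested genes, and calls are genes under 0.05. SEs were derived from the F statistic (size of the log2 fold change over the root of F). Per-mouse changes used log2 CPM computed with a prior count of 2. The code was tested on simulated data.

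Pairing rests on the animal named in each library's label. Deviations from group means correlated at −0.07 to 0.54 (median 0.26) over 18 pairs of libraries of the same mouse and at −0.50 to 0.27 (median −0.13) over 36 pairs of different mice. Deviations within a group sum to 0, which ties the values for different mice to those for the same mouse. The negative median is therefore no separate evidence of pairing.

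Gene positions and exon lengths are from GENCODE vM21 (GRCm38) and promoters from RefSeq (GRCm38.p6), which had an entry for 7 members. GENCODE starts Cxcl2 28 bases inside the window shown. Members, lists and markers were chosen with earlier results of these data known. All 9 members are named, and of each list up to 3 called genes per comparison with the smallest adjusted p. Tnf and Nfkbia with iBET in IC are given besides, since the study picked them out. Alternatives were DESeq2 1.42.0, its size factors in edgeR, other filters, mouse as a block in edgeR and DESeq2, the compared groups alone, 1 surrogate variable from sva 3.50.0, Rn45s left out, a threshold of 0.01, exon lengths from the longest transcript, and the omission of each library and mouse. The block without DMSO Ova mouse A was added after seeing the data. Exact intervals of pooled count ratios are at 95% (conditional binomial), the limit for a count of 0 is 3 counts, and both cover counting error only.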

Additional observations from a re-analysis of the deposited data

Results flagged for a closer look

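Cxcr3 values differed in opposite directions with IC in the 2 drug arms, and neither difference was called (edgeR adjusted p = 0.197 in DMSO and 0.876 in iBET). In DMSO it was lower with IC in 3 of 3 mice (−2.89, −0.48 and −1.24 in log2 CPM in mice A, B and C) and in iBET higher in 3 of 3 (0.74, 0.75 and 0.07). The interaction was 2.24 on the log2 scale (SE 0.80, edgeR adjusted p = 0.9999), so it did not pass over all genes. The value of −2.89 rests on 3 counts with IC and 6 counts in mouse A's Rn45s-rich DMSO Ova library. The gene had 54, 15, 21 and 28 counts in all in DMSO Ova, in iBET Ova, in DMSO IC and in iBET IC.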

How the results depend on the processing

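The numbers of members called in the 4 comparisons (2, 2, 1 and 3) and in the interaction (0) depended on the fit. With mouse as a replicate block there were 4 for IC in DMSO and 2 for iBET in Ova, and the block changed no member call other than those of Cxcl1 and Cxcl10 given above. DESeq2 gave 3 for IC in DMSO, where it added Cxcl1. For iBET in Ova, DESeq2 gave 2, DESeq2 with the block 2, and the block without DMSO Ova mouse A 2. Asking for at least 10 counts in every library removed Cxcl1, Cxcl3 and Cxcl10 and left 1, 1 and 1 for IC in DMSO, IC in iBET and iBET in IC, since fewer members were tested. The compared groups alone gave 1 for IC in either arm, and a threshold of 0.01 gave 1 for IC in iBET. For iBET in IC, the compared groups alone, the threshold of 0.01 and no filter each gave 2, without Cxcl10. Leaving out a library or mouse gave 0 to 2 members for IC in either arm, 0 to 2 for iBET in Ova and 2 to 3 for iBET in IC.

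Changes of sign occurred only in values that were not called. Cxcl1 with iBET in IC ranged from −0.31 to 0.65 when a library or mouse was left out, Cxcl2 with iBET in Ova from −0.20 to 0.10, and Cxcl3 with iBET in Ova from −1.09 to 0.057. Pf4 ranged from −0.23 to 0.013 for IC in DMSO, −0.17 to 0.26 for IC in iBET, −0.19 to 0.25 for iBET in IC and −0.074 to 0.36 for the interaction. The interaction ranged from −0.68 to 0.68 for Cxcl10, −0.25 to 0.12 for Cxcl14 and −0.085 to 0.15 for Cxcl16. Pf4 with iBET in IC was −0.0031 with DESeq2, −0.0027 with its size factors, −0.0032 with 10 counts in every library, −0.018 with DESeq2 and the block, and −0.0081 with the block and no DMSO Ova mouse A. The Cxcl10 interaction was −0.0052 with DESeq2 and −0.15 with a surrogate variable, and the Cxcl16 interaction was −0.0027 with the latter. The cause was not tested. Counts of 0 to 3 limit Cxcl3 in Ova, Cxcl9 and Cxcl11.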
